A study of Mus musculus with 8 samples.

Results

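The 10 genes described here are markers of pericentral hepatocytes, the liver cells around the central vein, and targets of Wnt/beta-catenin signalling: Glul, Oat, Slc1a2, Cyp1a2, Axin2, Notum, Rnf43, Znrf3, Lgr5 and Tbx3. They were taken by symbol from a table of 25239 genes, and all 10 were found and passed the filter on low counts. The table holds RNA-seq counts of liver from adult male mice, 4 libraries for each of 2 groups. Knockout mice carried loxP-flanked (fl/fl) Zfp36l1 alleles and an Alb-Cre transgene, in which the albumin promoter drives Cre recombinase in hepatocytes. Whether other liver cells keep an intact gene was not tested. Control mice carried the fl/fl alleles, and their genotype field reads WT, with no Cre named. Cre and the deletion therefore differ together between the groups. The series title concerns hepatocyte senescence and recovery from liver failure caused by alcohol, and no alcohol treatment is named for these libraries.

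Wnt proteins and R-spondins released by endothelial cells of the central vein reach the hepatocytes next to it, where stabilised beta-catenin enters the nucleus and, with TCF factors, turns on pericentral genes. Several targets act back on the pathway and damp it. ZFP36L1, the protein deleted in these livers, recognises AU-rich stretches of the 3′ untranslated region (UTR) and hastens the decay of the mRNAs that carry them.

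Of these 10 transcripts, 2 fell in knockout livers and 0 rose by edgeR, where 1.88% of all tested genes fell and 3.51% rose. DESeq2 and limma voom gave the same 2 and 0, but called 1663 and 1434 genes in all, against 801 by edgeR. The 2 that fell were Notum, a secreted inhibitor of Wnt proteins, and Cyp1a2, a cytochrome P450. When 1 library at a time was left out, Notum kept its call in 7 of 8 fits and Cyp1a2 in 1 of 8. Axin2, Rnf43, Tbx3 and Lgr5 averaged 60.6% to 72.6% of the control level but did not pass the test, and for Axin2, Rnf43 and Tbx3 knockout libraries 2 and 4 were the lowest of their group. Glul, the classical pericentral marker, averaged 106% of the control level and Slc1a2 102%, without passing the test.

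The sequences bound by ZFP36L1 contain a core that reads TATTTAT when written as DNA. Matches to that core in the 3′ UTRs of Axin2, Rnf43, Znrf3, Lgr5 and Tbx3 are shown. Annotated 3′ UTRs of the 10 transcripts were searched, and 6 held at least 1 match, against 29.7% of 13703 tested genes with a 3′ UTR. Each sequence is given as DNA, 5′ to 3′ on the strand of the transcript, with the core in capitals and mm10 (GRCm38) coordinates.
Axin2 first match (chr11:108949623-108949645, plus strand): gcctgaacTATTTATtcaaaaca
Axin2 second match (chr11:108949774-108949796, plus strand): cttactgaTATTTATtgaacagt
Rnf43 first match (chr11:87735439-87735461, plus strand): cacatgggTATTTATatctgaac
Rnf43 second match (chr11:87735497-87735519, plus strand): aaaaaatgTATTTATttgctaat
Rnf43 last match (chr11:87735513-87735535, plus strand): tgctaataTATTTATccataaat
Znrf3 first match (chr11:5276541-5276563, minus strand): tctcagaaTATTTATttactaat
Znrf3 second match (chr11:5276525-5276547, minus strand): tactaataTATTTATcttaagcc
Lgr5 first match (chr10:115451020-115451042, minus strand): cggatctgTATTTATttctgagt
Lgr5 second match (chr10:115450518-115450540, minus strand): tagacttgTATTTATtgctacag
Tbx3 match (chr5:119684003-119684025, plus strand): ggacaaagTATTTATgtaattat

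The 3′ UTRs of Axin2, Rnf43, Znrf3, Lgr5 and Tbx3 are 1388, 1340, 3400, 1703 and 1632 bases long, and Slc1a2 held 3 further matches in 9250 bases. Glul, Oat, Cyp1a2 and Notum held 0 in 3′ UTRs of 1541, 692, 291 and 432 bases, where the median over the tested genes was 1155 bases. All 6 with a match are thus longer than that median, and length was not matched in this comparison. Both transcripts that fell are among the 4 without this core, and none of the 6 with it rose or fell by the test. Of these 6, Axin2, Rnf43, Lgr5 and Tbx3 had log2 fold changes of −0.46 to −0.72 (SE 0.20 to 0.40), and Znrf3 and Slc1a2 0.12 and 0.03. Of those without it, Cyp1a2 had −0.46 (SE 0.10), Notum −0.78 (SE 0.14), Glul 0.09 and Oat 0.45. A match is a description of the letters and not evidence of binding in liver.

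Zfp36l1 itself had 76.9, 57.9, 67.2 and 58.3 counts scaled to library size (CPM) in knockout libraries 1 to 4, against 263, 237, 324 and 212 CPM in control libraries 1 to 4 (log2 fold change −1.99, SE 0.14, adjusted p = 0.000309). Permuting the group labels exactly (70 ways, two-sided) gave p = 0.0286, the lowest value possible with 4 against 4 when pairs are ignored. An exact permutation within pairs of the same replicate number (16 ways, two-sided) gave p = 0.125, again the lowest value possible. Total counts were 120200618 to 140582588 in the knockout libraries and 104842873 to 132017092 in the control libraries. CPM are per library size after scaling by the trimmed mean of M-values (TMM). A log2 fold change above 0 means higher in knockout livers, and its standard error is given as SE. Adjusted p is the Benjamini-Hochberg value of edgeR's quasi-likelihood test over 14861 genes, with a threshold of 0.05. Of all tested genes 5.39% passed, 3.51% higher and 1.88% lower in knockout livers. The labels number the libraries without naming separate mice, so a p-value here compares groups against the spread among the libraries sequenced, which may be technical in part. In whole liver, fewer cells of a type and less RNA per cell cannot be told apart.

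Notum encodes a secreted carboxylesterase that removes the lipid from Wnt proteins and so inactivates them, and it is itself switched on by Wnt signalling. The gene lies on chromosome 11 (120653788 to 120661175, minus strand). Notum had 22.5, 20.6, 21.8 and 20.6 CPM in knockout libraries 1 to 4, against 29.3, 47.5, 37.5 and 32.3 CPM in control libraries 1 to 4. The groups did not overlap, and the 4 knockout values lay within 1.09-fold of each other while the control values spanned 1.62-fold. The means were 21.3 ± 0.941 CPM in knockout livers and 36.6 ± 8.01 CPM in control livers (SD, n = 4 each), so knockout livers held 58.3% of the mean of controls. Notum fell by 0.78 on the log2 scale (SE 0.14, adjusted p = 0.0154), and the adjusted p was 0.0519 without knockout replicate 3.

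Cyp1a2 encodes a cytochrome P450 that oxidises caffeine and other foreign aromatic compounds and is induced through the aryl hydrocarbon receptor. The gene lies on chromosome 9 (57676937 to 57683703, minus strand). Cyp1a2 had 567, 543, 665 and 687 CPM in knockout libraries 1 to 4, against 755, 901, 928 and 799 CPM in control libraries 1 to 4. All knockout values were below all control values, with means of 616 ± 71.3 CPM in knockout livers and 846 ± 82.0 CPM in control livers (SD, n = 4 each). Cyp1a2 fell by 0.46 on the log2 scale (SE 0.10, adjusted p = 0.0363). When each library in turn was omitted, only the fit without knockout replicate 4 kept the call, and adjusted p was 0.0365 to 0.114 over the 8 fits, with log2 fold changes of −0.51 to −0.40. Blocking on replicate number kept the call (adjusted p = 0.0294). Groups that do not overlap, as for these 2 genes, were found for 15.1% of all tested genes.

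**Figure D1:**
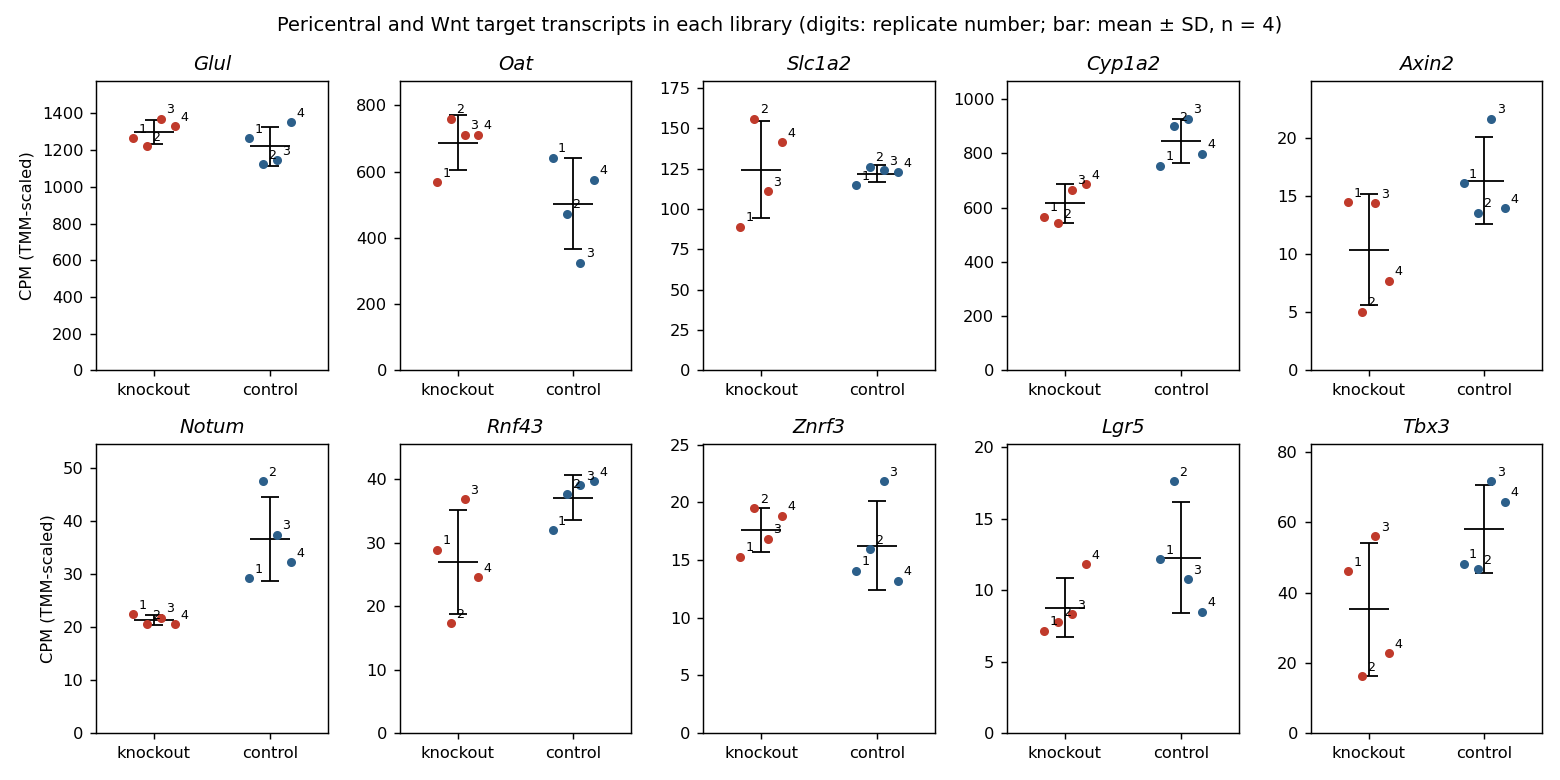
TMM-scaled CPM of the 10 transcripts on linear axes from 0, with 1 point per library, the replicate number beside it and a bar for the mean ± SD (n = 4 per group). Notum and Cyp1a2 are the panels without overlap, and in the panels of Axin2, Rnf43 and Tbx3 knockout libraries 2 and 4 lie below knockout libraries 1 and 3.

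The enzymes and the carrier of pericentral nitrogen metabolism did not pass the test in either direction. Glul (chromosome 1, 153899944 to 153909723, plus strand) encodes glutamine synthetase, which captures ammonia as glutamine in the innermost pericentral hepatocytes. Glul had 1265, 1222, 1371 and 1330 CPM in knockout libraries 1 to 4, against 1264, 1122, 1144 and 1352 CPM in control libraries 1 to 4. The groups overlapped, with a log2 fold change of 0.09 (SE 0.08, adjusted p = 0.588). Scaling by total counts alone shifted the median of all genes by −0.11 and gave Glul −0.023. Exons of Glul overlap Teddm2 on the opposite strand and the microRNA gene Mir8114, and the strand setting of the counting is not given in the sources used here.

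Oat (chromosome 7, 132557478 to 132576398, minus strand) encodes ornithine aminotransferase, a mitochondrial enzyme that feeds ornithine carbon towards glutamate. Oat had 568, 760, 711 and 711 CPM in knockout libraries 1 to 4, against 642, 472, 325 and 576 CPM in control libraries 1 to 4. Knockout library 1 lay within the control range and the other knockout libraries above it. The log2 fold change of 0.45 was positive (SE 0.19), with an unadjusted p of 0.0437 and adjusted p = 0.216 by edgeR. Unadjusted p-values under 0.05 were found for 4 of the 10 genes, Oat, Cyp1a2, Notum and Rnf43, and for 21.5% of all tested genes.

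Slc1a2 (chromosome 2, 102658659 to 102790784, plus strand) encodes the glutamate transporter GLT-1, which supplies pericentral hepatocytes with the substrate of glutamine synthetase. Slc1a2 had 88.8, 156, 111 and 141 CPM in knockout libraries 1 to 4, against 115, 126, 124 and 123 CPM in control libraries 1 to 4. The knockout values spread to both sides of the narrow control range, with libraries 2 and 4 above it and libraries 1 and 3 below it. The means were 124 ± 30.1 CPM in knockout livers and 122 ± 5.04 CPM in control livers (SD, n = 4 each), a log2 fold change of 0.03 (SE 0.15, adjusted p = 0.935). Exons of Slc1a2 overlap Gm13872 on the opposite strand.

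The other feedback inhibitors of the pathway act at the membrane and in the destruction complex that marks beta-catenin for degradation. Axin2 (chromosome 11, 108920349 to 108950783, plus strand) encodes a scaffold of that complex and is a general Wnt target. Axin2 had 14.5, 5.02, 14.4 and 7.71 CPM in knockout libraries 1 to 4, against 16.1, 13.6, 21.7 and 13.9 CPM in control libraries 1 to 4. Knockout libraries 2 and 4 lay far below the control range and libraries 1 and 3 inside it. Its log2 fold change was −0.65 (SE 0.34, adjusted p = 0.308), or −0.75 when replicate number was a block (adjusted p = 0.0695).

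RNF43 and ZNRF3 are related transmembrane ubiquitin ligases that remove Frizzled receptors from the cell surface. Rnf43 (chromosome 11, 87662722 to 87735539, plus strand) had 28.9, 17.4, 36.9 and 24.6 CPM in knockout libraries 1 to 4, against 31.9, 37.7, 39.1 and 39.7 CPM in control libraries 1 to 4. Again libraries 2 and 4 were the lowest of the knockout group, and only knockout library 3 was within the control range. For Rnf43 the log2 fold change was −0.46 (SE 0.20, unadjusted p = 0.0455, adjusted p = 0.221 by edgeR).

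Znrf3 (chromosome 11, 5276324 to 5444847, minus strand) had 15.3, 19.5, 16.8 and 18.8 CPM in knockout libraries 1 to 4, against 14.0, 15.9, 21.8 and 13.2 CPM in control libraries 1 to 4. All knockout values lay inside the control range, and libraries 2 and 4 were the highest of the knockout group. Its log2 fold change, 0.12 (SE 0.16, adjusted p = 0.711), became −0.0013 under scaling by total counts alone. Of the 4 feedback inhibitors Notum was the only one past the threshold, and the difference between its change and that of the other inhibitors was not tested.

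LGR5 is a receptor for R-spondins, which keep RNF43 and ZNRF3 away from Frizzled and so amplify the Wnt signal. Lgr5 (chromosome 10, 115450311 to 115587780, minus strand) had 7.16, 7.78, 8.32 and 11.8 CPM in knockout libraries 1 to 4, against 12.2, 17.6, 10.8 and 8.50 CPM in control libraries 1 to 4. Knockout libraries 1 to 3 lay below the control range and library 4 inside it. Lgr5 had a log2 fold change of −0.48 (SE 0.23, adjusted p = 0.269).

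Tbx3 (chromosome 5, 119670669 to 119684724, plus strand) encodes a T-box transcription factor that is a beta-catenin target in liver. Tbx3 had 46.1, 16.1, 56.1 and 22.7 CPM in knockout libraries 1 to 4, against 48.2, 46.7, 71.7 and 65.9 CPM in control libraries 1 to 4. Only knockout library 3 reached the control range, and libraries 2 and 4 were the lowest of all 8. Its log2 fold change was −0.72 (SE 0.40, adjusted p = 0.342), or −0.87 with the block (adjusted p = 0.202).

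**Figure D2:**
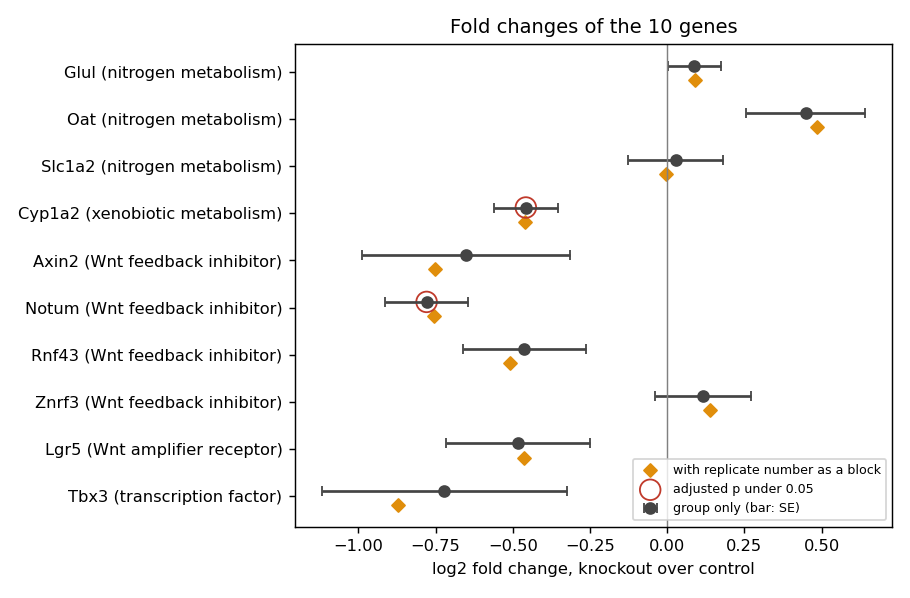
Log2 fold change of knockout over control for the 10 genes, as circles with SE bars for the fit by group and as diamonds for the fit with the replicate number as a block. Red rings mark Notum at −0.78 and Cyp1a2 at −0.46, and the SE bars of Tbx3 and Axin2 are the longest.

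Axin2, Tbx3 and Rnf43 varied together among the knockout libraries. Relative to the control mean, knockout libraries 1 to 4 held 88.6%, 30.8%, 88.1% and 47.2% of Axin2 and 79.2%, 27.7%, 96.5% and 39.0% of Tbx3. For Rnf43 they held 77.9%, 46.8%, 99.3% and 66.2%. The order of the knockout libraries was the same for Tbx3 and Rnf43, and for Axin2 it differed only in that libraries 1 and 3 stood almost level.

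The highest knockout library exceeded the lowest 3.48-fold for Tbx3, 2.88-fold for Axin2 and 2.12-fold for Rnf43. The same ratio among control libraries was 1.54, 1.60 and 1.24. A span of 2-fold or more was found among knockout libraries for 3 of the 10 genes and 17.1% of all tested genes, and among control libraries for 1 of the 10, Lgr5, and 16.7% of all. For Notum knockout libraries 2 and 4 were also the lowest of their group, but the span was only 1.09-fold. Its knockout libraries 1 to 4 held 61.3%, 56.1%, 59.5% and 56.2% of the control mean. Slc1a2 ran against the pattern with 72.9%, 128%, 91.0% and 116%. Axin2, Tbx3 and Rnf43 were not alone in the pattern. Sp5 had 2.17, 1.19, 2.81 and 1.55 CPM in knockout libraries 1 to 4, and Fzd7 56.5, 30.4, 55.6 and 46.5 CPM. Knockout libraries 2 and 4 were the highest for Myc (3.32, 26.1, 3.44 and 21.1 CPM) and Pck1 (2321, 4202, 2585 and 3831 CPM). How many of all tested genes share either pattern was not tested.

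Of the 5 marker sums of other liver cell types, none had knockout libraries 2 and 4 as its lowest pair or its highest pair. Macrophage markers summed to 144 CPM in knockout library 2 and 384 CPM in knockout library 4, which were the lowest and the highest of the group, and endothelial markers to 261 and 355 CPM, likewise the lowest and the highest. Zfp36l1 was lower in knockout libraries 2 and 4 than in libraries 1 and 3, at 57.9 and 58.3 CPM beside 76.9 and 67.2 CPM. Its part in the spread of Axin2, Tbx3 and Rnf43 was not tested.

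**Figure D3:**
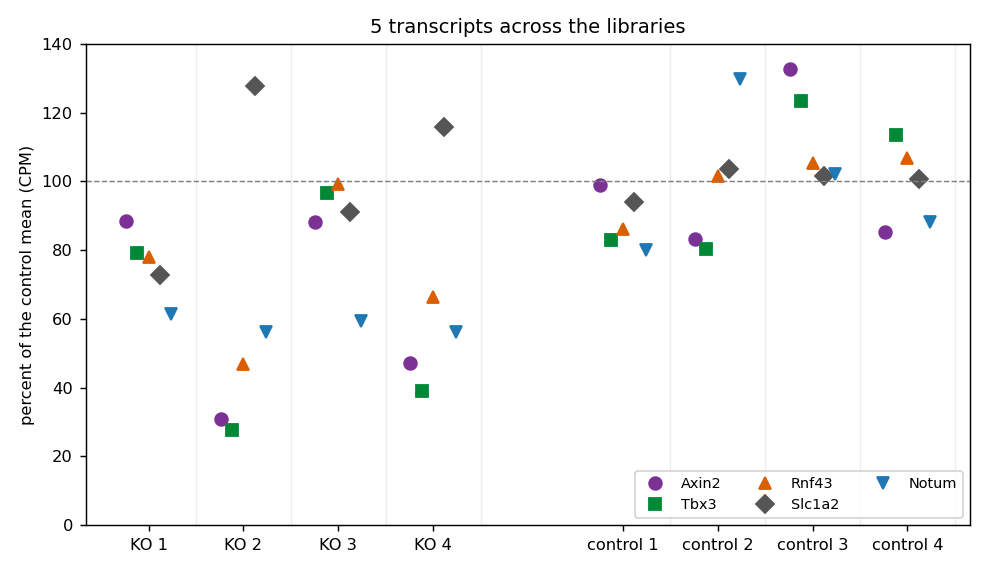
Percent of the control mean, on CPM, for 5 transcripts in each of the 8 libraries, 1 symbol per gene. Axin2, Tbx3 and Rnf43 are low in knockout libraries 2 and 4, where Slc1a2 is at 128% and 116%, and Notum lies at 56.1% to 61.3% in all 4 knockout libraries.

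Within pairs of libraries with the same number, 5 of the 10 genes were lower in the knockout library in 4 of 4 pairs, and such a pattern was found for 17.7% of all tested genes. These were Cyp1a2, Axin2, Notum, Rnf43 and Tbx3. The ratio of knockout to control was 0.751, 0.603, 0.717 and 0.860 in pairs 1 to 4 for Cyp1a2 and 0.767, 0.432, 0.582 and 0.638 for Notum. It was 0.896, 0.370, 0.664 and 0.553 for Axin2, 0.905, 0.460, 0.943 and 0.620 for Rnf43, and 0.955, 0.345, 0.783 and 0.344 for Tbx3. Lgr5 was lower in 3 pairs and higher in pair 4, and Glul, Oat and Znrf3 were each higher in 3 pairs and lower in 1. Notum and Cyp1a2 were also the 2 genes called in the blocked fit, in which 6.92% of all tested genes passed.

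Levels were compared between genes as length-scaled abundances (TPM), computed with the deposited gene lengths. In knockout livers Glul led with 1058 ± 77.3 TPM (SD, n = 4), followed by Cyp1a2 with 745 ± 101 and Oat with 730 ± 92.5, whose ranges overlapped. In control livers Cyp1a2 averaged 1089 ± 151 TPM and Glul 1054 ± 58.8 TPM (SD, n = 4 each), with overlapping ranges, and Oat was below both at 563 ± 135 TPM.

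The Wnt pathway genes and Slc1a2 were all far less abundant. In knockout livers Notum had 24.2 ± 1.19 TPM, Slc1a2 23.5 ± 5.61, Tbx3 16.7 ± 9.19 and Rnf43 13.6 ± 4.36 (SD, n = 4), and each overlapped the next. In control livers Notum had 44.2 ± 10.7 TPM, Tbx3 29.3 ± 7.04, Slc1a2 24.6 ± 1.81 and Rnf43 19.9 ± 2.33 (SD, n = 4), of which Slc1a2 and Rnf43 did not overlap. The lowest levels were those of Axin2, Znrf3 and Lgr5, at 5.60, 5.25 and 4.26 TPM in knockout livers and 9.37, 5.19 and 6.34 TPM in control livers, where Axin2 lay above Znrf3 in every control library and all other pairs of the 3 overlapped.

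**Figure D4:**
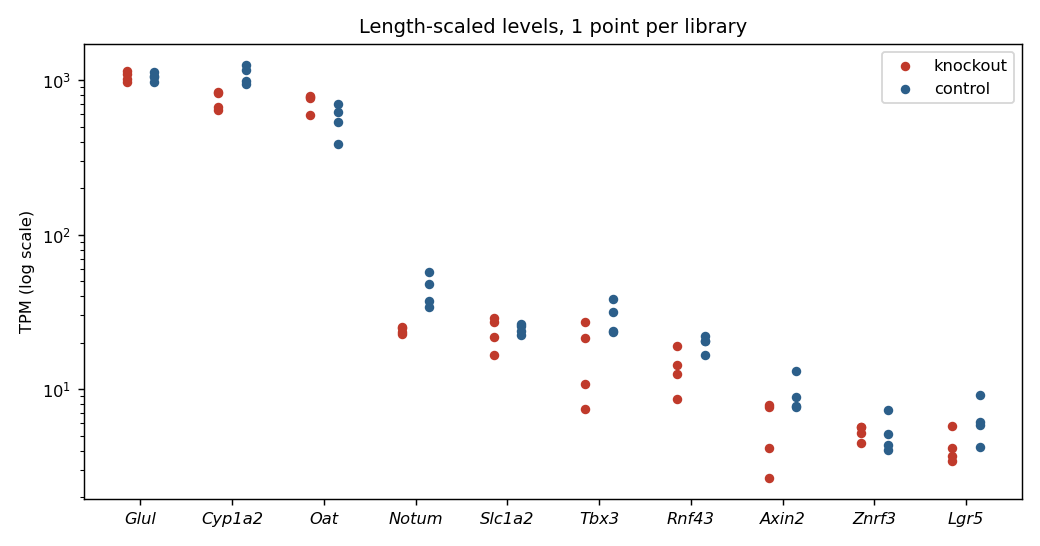
Length-scaled levels of the 10 transcripts in TPM on a log axis, 1 point per library, ordered by the knockout mean. Glul, Cyp1a2 and Oat lie above 387 TPM in every library, and the 7 other genes lie below 58 TPM.

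For the upstream part of the pathway, calls by edgeR are given list by list, where 5.39% of all tested genes passed. At that share, lists this short would hold few calls. Of 11 tested genes for Wnt ligands, R-spondins and their secretion, 0 rose and 0 fell, with a median log2 fold change of −0.11 beside −0.01 over all tested genes. The main Wnt and R-spondin genes of central vein endothelium were detected at low levels. Wnt2 averaged 1.33 ± 0.314 CPM in knockout livers and 1.44 ± 0.202 CPM in control livers (SD, n = 4 each, adjusted p = 0.795 by edgeR). Wnt9b averaged 1.64 ± 0.472 CPM in knockout livers and 1.57 ± 0.650 CPM in control livers (SD, n = 4 each, adjusted p = 0.926 by edgeR). Rspo3 averaged 4.84 ± 0.779 CPM in knockout livers and 5.38 ± 0.480 CPM in control livers (SD, n = 4 each, adjusted p = 0.557 by edgeR). Unadjusted p was under 0.05 for 1 gene of the list, Porcn, which encodes the enzyme that attaches the lipid to Wnt proteins, with adjusted p = 0.130 by edgeR and 0.0497 with the block, and DESeq2 and limma voom called 0 genes of the list.

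Of 14 tested receptors and co-receptors 0 rose and 0 fell by edgeR, while DESeq2 and limma voom each called 3 lower and 0 higher. Over all genes DESeq2 called 982 higher and 681 lower of 15031, and limma voom 830 higher and 604 lower of 14861. Those with unadjusted p under 0.05 were the Frizzled genes Fzd3 and Fzd8 and Ror1, with log2 fold changes of −1.18, −0.58 and −0.44 and adjusted p-values of 0.0731, 0.0780 and 0.0866 by edgeR. For DESeq2 their adjusted p-values were 0.0366, 0.0199 and 0.0237. Lgr4, the R-spondin receptor that is broadly expressed in hepatocytes, averaged 77.7 ± 13.3 CPM in knockout livers and 77.6 ± 7.71 CPM in control livers (SD, n = 4 each). The co-receptor gene Lrp6 averaged 125 CPM in knockout livers and 116 CPM in control livers. Their adjusted p-values by edgeR were 0.995 and 0.611. Of 13 other tested Wnt inhibitors 0 rose and 0 fell by edgeR (1 lower at unadjusted p under 0.05 and by DESeq2, 0 by limma), among them Nkd1, a target gene that restrains Dishevelled, with a log2 fold change of −0.26 (SE 0.14, adjusted p = 0.335).

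Of 16 genes for the destruction complex and Dishevelled, 1 fell and 0 rose by edgeR, while DESeq2 and limma voom each called 1 lower and 1 higher, the higher one being Fbxw11, with adjusted p = 0.0768 by edgeR. Total counts alone gave 3 lower and 0 higher. Amer1, which encodes a scaffold that binds APC, had 6.40, 4.12, 5.83 and 6.24 CPM in knockout libraries 1 to 4, against 9.16, 7.67, 11.6 and 9.12 CPM in control libraries 1 to 4. All knockout values were below the control values (log2 fold change −0.73, SE 0.17, adjusted p = 0.0356), and 1 of the 8 fits that left out a library kept the call (adjusted p up to 0.0906).

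Of 12 tested genes for beta-catenin and its nuclear partners, 1 rose and 0 fell by edgeR, and DESeq2 also called Tcf7 lower (log2 fold change −0.46, adjusted p = 0.0806 by edgeR). Pygo1 encodes a PHD finger protein that joins the beta-catenin complex through BCL9. It had 1.65, 1.95, 2.23 and 1.58 CPM in knockout libraries 1 to 4, against 0.369, 0.300, 0.387 and 0.345 CPM in control libraries 1 to 4, with no overlap. Pygo1 rose by 2.40 on the log2 scale (SE 0.19, adjusted p = 0.000407), and that p stayed at or below 0.00352 when any 1 library was left out. Ctnnb1, the beta-catenin gene, averaged 294 ± 8.35 CPM in knockout livers and 309 ± 15.6 CPM in control livers, without passing the test (SD, n = 4 each, adjusted p = 0.550 by edgeR). Exons of Ctnnb1 overlap Ulk4 on the opposite strand and the microRNA gene Mir7090. Tcf7l2, the main TCF gene of liver, averaged 22.7 ± 1.86 CPM in knockout livers and 21.3 ± 2.60 CPM in control livers (SD, n = 4 each, adjusted p = 0.655 by edgeR).

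Of 11 other tested Wnt target genes 0 rose and 0 fell by edgeR (1 lower at unadjusted p under 0.05 and by DESeq2, 0 by limma), with a median log2 fold change of 0.01. Sp5, a zinc finger gene that Wnt signalling switches on in many tissues, averaged 1.93 ± 0.713 CPM in knockout livers and 2.37 ± 0.308 CPM in control livers (SD, n = 4 each). Lect2, a secreted protein gene downstream of beta-catenin in liver, averaged 37.4 ± 4.93 CPM in knockout livers and 38.4 ± 4.03 CPM in control livers (SD, n = 4 each). Their adjusted p-values by edgeR were 0.534 and 0.883. The median log2 fold change of the 10 pericentral and Wnt target genes was −0.46, with 6 below 0.

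Of 23 other pericentral hepatocyte genes, all tested, 1 rose and 3 fell, and with the block 0 rose and 4 fell, the addition being Cyp2c37 (log2 fold change −1.09, adjusted p = 0.0573, or 0.00944 with the block). Cyp2c50, a cytochrome P450 gene, fell to 488 ± 37.5 CPM in knockout livers, against 715 ± 85.9 CPM in control livers (SD, n = 4 each, log2 fold change −0.55, SE 0.10, adjusted p = 0.0170, and 0.0584 in the 1 of 8 leave-one-out fits that lost the call). Nr1i3, which encodes the nuclear receptor CAR, a regulator of drug metabolism genes, fell to 67.2 ± 12.3 CPM in knockout livers, against 105 ± 19.4 CPM in control livers (SD, n = 4 each, adjusted p = 0.0493, or 0.00509 with the block). That call was lost in 7 of 8 leave-one-out fits, under RLE scaling, without the count filter and with limma voom, and exons of Nr1i3 overlap Tomm40l on the opposite strand.

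Akr1c6, a steroid dehydrogenase gene, had a log2 fold change of −0.35 (adjusted p = 0.0317), and Cyp2a5, a cytochrome P450 gene, rose to 836 ± 175 CPM in knockout livers, against 408 ± 114 CPM in control livers (SD, n = 4 each, adjusted p = 0.0255, or 0.0509 with the block). Each call held in 2 of 8 leave-one-out fits. Reads of the Cyp2c and Cyp2a families may be split between near-identical copies. Cyp2e1, the ethanol-oxidising P450 that marks a broad pericentral zone, averaged 4613 ± 649 CPM in knockout livers and 5024 ± 461 CPM in control livers (SD, n = 4 each, adjusted p = 0.589 by edgeR). Rhbg, an ammonium transporter gene restricted to the same innermost cells as Glul, averaged 7.82 ± 0.550 CPM in knockout livers and 8.71 ± 2.84 CPM in control livers (SD, n = 4 each, adjusted p = 0.729 by edgeR).

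At the opposite end of the lobule, of 16 tested periportal genes 1 rose and 2 fell by edgeR, while DESeq2 called 2 higher and 3 lower and limma voom 1 higher and 3 lower. Hsd17b13, a lipid droplet dehydrogenase gene, rose by a log2 value of 0.45 (adjusted p = 0.0237), while Pigr, the immunoglobulin A transporter gene, had −0.61 (adjusted p = 0.0170) and Sox9 −1.18 (adjusted p = 0.0242). Sox9 is also a bile duct marker and was the only 1 of 6 tested cholangiocyte markers past the threshold. These calls held in 4, 5 and 3 of the 8 leave-one-out fits. Gls2, the liver glutaminase gene, averaged 308 ± 11.0 CPM in knockout livers and 355 ± 21.3 CPM in control livers (SD, n = 4 each, adjusted p = 0.110 by edgeR), without overlap, and passed under total counts alone (0.0237). Exons of Gls2 overlap Spryd4 on the opposite strand.

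Around Cyp1a2, 0 of 9 tested genes of the aryl hydrocarbon receptor pathway rose and 0 fell by edgeR (1 higher and 1 lower at unadjusted p under 0.05, 1 higher by DESeq2 and by limma). Ahr, the receptor gene, had 58.3, 41.2, 56.9 and 58.5 CPM in knockout libraries 1 to 4, against 70.5, 64.5, 84.7 and 62.4 CPM in control libraries 1 to 4. The groups did not overlap, with a log2 fold change of −0.39 (SE 0.13), adjusted p = 0.124, or 0.0530 in the blocked fit, and it passed when scaled by total counts alone (0.0452). Cyp1a1, the neighbouring P450 gene with the same inducer, averaged 3.06 ± 0.627 CPM in knockout livers and 3.59 ± 0.149 CPM in control livers (SD, n = 4 each, adjusted p = 0.419 by edgeR).

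Around Glul and Oat, 1 of 24 tested enzymes and carriers of glutamate, glutamine and ornithine rose and 0 fell by edgeR. DESeq2 called 2 higher and 1 lower, limma voom 1 higher and 3 lower (Otc, Gpt and Prodh), and scaling by total counts alone 1 higher and 4 lower. The gene called by edgeR was Got1, the cytosolic aspartate aminotransferase, with 191, 357, 240 and 326 CPM in knockout libraries 1 to 4, against 149, 102, 150 and 144 CPM in control libraries 1 to 4 (log2 fold change 1.03, SE 0.21, adjusted p = 0.0266, or 0.0820 with the block). The call held in 2 of 8 leave-one-out fits (adjusted p up to 0.0634). As for Slc1a2, knockout libraries 2 and 4 were the highest.

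**Figure D5:**
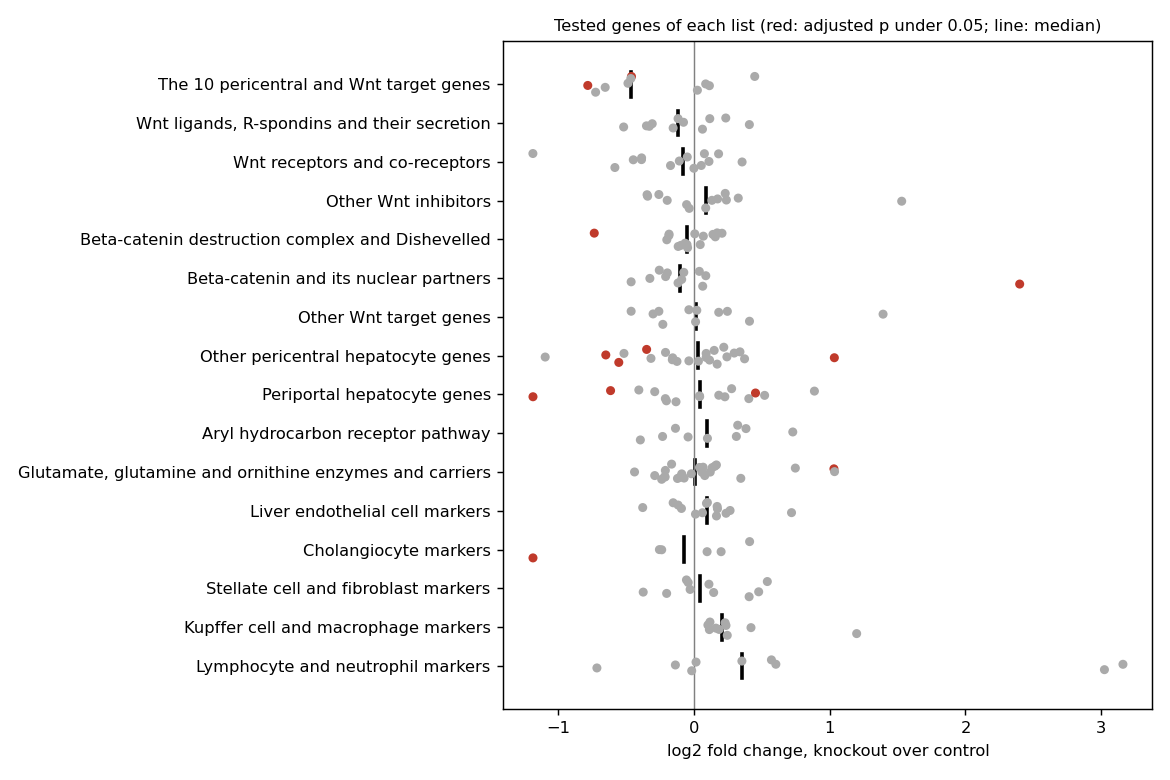
Log2 fold change of each tested gene (1 point per gene, knockout over control) for the 10 pericentral and Wnt target genes and for each list around them, with red points past the threshold and a line at the median. The median of the 10 genes is −0.46, and among the other Wnt pathway lists the red points are Amer1 at −0.73 and Pygo1 at 2.40.

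Of 14 endothelial, 10 stellate, 10 macrophage and 9 lymphocyte and neutrophil markers tested, 0 rose and 0 fell by edgeR. At unadjusted p under 0.05 there were 2 higher endothelial and 1 higher macrophage markers, and DESeq2 and limma each called 1 endothelial marker higher. All 10 macrophage markers had a log2 fold change above 0, with a median of 0.21, beside 7193 of 14861 tested genes above 0. These markers summed to 304, 144, 177 and 384 CPM in knockout libraries 1 to 4, against 172 to 239 CPM in control libraries. Only knockout libraries 1 and 4 were above the control range. The median of the lymphocyte and neutrophil markers was 0.35. Endothelial markers summed to 261 to 355 CPM in knockout livers and 244 to 328 CPM in control livers. Cholangiocyte markers summed to 30.5 to 45.0 CPM in knockout livers and 42.2 to 57.0 CPM in control livers. Spp1 made up most of each of these sums. Of the 6 tested cholangiocyte markers, Krt19, Krt7 and Cftr had log2 fold changes above 0, and Epcam, Sox9 and Spp1 below 0. The lower, overlapping cholangiocyte sums stood beside the lower Notum and Cyp1a2 values, and their part in these was not tested.

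Stellate markers summed to 313 to 493 CPM in knockout livers and 261 to 398 CPM in control livers, and macrophage markers to 144 to 384 CPM in knockout livers and 172 to 239 CPM in control livers. Lymphocyte and neutrophil markers summed to 43.7, 2.77, 2.75 and 21.0 CPM in knockout libraries 1 to 4, against 2.90 to 10.4 CPM in control libraries. Most of the 2 high sums were the neutrophil genes S100a8, with 15.5, 0.0174, 0.0579 and 6.16 CPM in knockout libraries 1 to 4 and a mean of 0.612 CPM in control libraries, and S100a9, with 22.7, 0.105, 0.0434 and 9.66 CPM in knockout libraries 1 to 4 and a mean of 1.01 CPM in control libraries. Whether these values bear on the lower Notum and Cyp1a2 was not tested. The neutrophil marker Ly6g had 0 to 48 counts in knockout libraries and 0 to 4 counts in control libraries, and was left out by the count filter.

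A few other genes of the lists missed the threshold in the fit by group and passed in the blocked fit, and are named after their values were seen. They were Pygo2, a partner of BCL9 (log2 fold change −0.32, adjusted p = 0.0925, or 0.0455 with the block), the periportal gene Etnppl (0.52, adjusted p = 0.221, or 0.0186), the endothelial gene Lyve1 (0.72, adjusted p = 0.0549, or 0.0231) and the T cell gene Cd4 (−0.71, adjusted p = 0.449, or 0.0235).

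Likeness to 3 of the genes was measured as the Pearson correlation of log2 CPM deviations from the group means over the 8 libraries, among 14860 other genes. The closest genes were Prodh (0.99), Msmo1 (0.98) and 1700119H24Rik (0.98) for Glul, Snx18 (0.99), Zfp267 (0.99) and Arid3a (0.98) for Axin2, and Gabra3 (0.99), Virma (0.98) and Flt1 (0.98) for Cyp1a2. Values this high are the largest of many over few libraries and are given only as a description.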

How the data were processed

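The deposited data are raw counts by gene symbol, in a single table with a column for each of the 8 liver libraries. Per the labels' protocols, RNA was extracted with an illustra QuickPrep mRNA kit and libraries were made with NEBNext Ultra II. The build was mm10, per the submitters' processing notes. No source used here gives the aligner, counter, annotation or strand setting. Gene lengths in bases, a further column per the file headers, served only for TPM. In each library 67.4% to 70.8% of counts from 1 to 20 were even, as when both mates of a pair are counted, so halved counts were an alternative.

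Columns were matched to samples by library name. filterByExpr kept 14861 genes and left out 10378. The main test was edgeR 4.0.16 (TMM, robust glmQLFit, glmQLFTest) on all kept genes in R 4.3.3, with Benjamini-Hochberg adjustment. SEs are the absolute log2 fold change over the square root of F. The code was tested on simulated data. Alternatives used DESeq2 1.42.0, limma 3.58.1, other scalings and filters, halved counts, the replicate block and leaving out each library. At this depth 3 counts correspond to 0.0213 to 0.0286 CPM, which covers counting error only.

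Both groups carry replicate numbers 1 to 4. After subtraction of group means, same-numbered libraries correlated over genes at 0.17, 0.39, 0.31 and 0.40. The numbers were therefore treated as pairs in the blocked fit, the ratios within pairs and the permutation within pairs. The main edgeR test was by group alone and did not use the pairs. The pairing comes from the data, since the labels name no shared litter or day. 3′ UTRs came from GENCODE M21 (GRCm38), as the longest 3′ UTR of at least 20 bases among a gene's protein-coding transcripts.

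The 10 genes and the lists were chosen with earlier results of these data known. Named are the 10 genes, Zfp36l1, the members of each list past the threshold (the 4 lowest adjusted p-values where more than 5 passed), 15 genes of the pathway and of zonation regardless of the test, and the 3 genes most like Glul, Axin2 and Cyp1a2. Other genes, such as Porcn, Fzd3, Fzd8, Ror1, Fbxw11, Tcf7, Otc, Gpt, Prodh, Cyp2c37, S100a8 and S100a9, were named after their values were seen. So were Fzd7, Myc, Pck1, Krt19, Krt7, Cftr, Epcam and Spp1.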

Additional observations from a re-analysis of the deposited data

Results flagged for a closer look

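Single libraries stood far from the other 3 of their group in 5 of 72 groups of values checked, where chance gives about 5%. None of the 5 concerned the 10 pericentral and Wnt target genes. Wnt2 had 0.856 CPM in knockout replicate 1, where the next value was 1.48 CPM. Ahr had 41.2 CPM in knockout replicate 2, where the next value was 56.9 CPM. Got1 had 102 CPM in control replicate 2, with the next value at 144 CPM. Tcf7l2 had 17.4 CPM in control replicate 4, with the next value at 22.4 CPM. Lrp6 had 145 CPM in control replicate 3, with the next value at 107 CPM.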

How the results depend on the processing

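Of the 10 genes, 2 passed in the main fit and in each of the 8 alternatives with all libraries, with Notum and Cyp1a2 lower in each, and 0 to 2 passed when 1 library was left out (0 without knockout replicate 3, 2 without knockout replicate 4, 1 in the other 6 fits). All tested genes past the threshold numbered 801, or 1663 with DESeq2, 1730 under total counts alone and 1434 with limma voom and quality weights, and 211 to 967 in the leave-one-out fits. Total counts alone gave 392 higher and 1338 lower genes, against 521 and 280, and shifted the median log2 fold change by −0.11. The replicate block gave 1028 calls. It ended the calls of Cyp2a5 and Got1, and of the 10 genes it changed no call.

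Signs turned only for genes that did not pass. Under total counts alone the log2 fold changes were −0.023 for Glul, −0.087 for Slc1a2, −0.0013 for Znrf3, −0.026 for Tcf7l2, −0.11 for Lgr4, −0.0036 for Lrp6 and −0.045 for Wnt9b. With the replicate block they were −0.0050 for Slc1a2 and −0.0074 for Lgr4, and with limma −0.11 for Slc1a2, −0.058 for Lgr4 and −0.0085 for Wnt9b. Leaving out 1 library at a time gave −0.10 to 0.16 for Slc1a2, −0.12 to 0.065 for Lgr4, −0.13 to 0.37 for Wnt9b, −0.18 to 0.049 for Wnt2, −0.35 to 0.0088 for Rhbg and −0.10 to 0.057 for Lect2. The cause was not tested. Zfp36l1 passed in every alternative, with a log2 fold change of −2.08 to −1.86 in the leave-one-out fits. With 4 libraries per group, decreases of the size seen for Axin2 and Tbx3 had SEs of 0.34 and 0.40 on the log2 scale.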
